A study of Xenopus tropicalis with 26 samples.

Results

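Kinesins are motor proteins that use ATP to walk along microtubules or to take microtubule ends apart. The kinesin motor genes described here were the genes of the count table whose symbol is kif followed by a number and, for some, a letter, with a mean level of 1 or more in at least 1 group, in CPM, the count of a gene scaled to the size of its library with TMM factors. The table held 37 such symbols among 28778 genes, and 31 met the level. By their best known roles 11 were grouped as mitotic kinesins, 11 as transport kinesins and 9 as other kinesins. The least abundant kinesin included, kif5a, reached 1.95 CPM in its highest group, and the most abundant one left out, kif6, reached 0.839 CPM.

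RNA came from early Xenopus tropicalis embryos of stages 6, 7 and 8 and was read by stranded sequencing of polyA RNA. Cells of such embryos divide fast and hold transcripts stored in the egg. The 26 libraries form 13 groups of 2: wildtype embryos with no treatment at stages 6, 7 and 8, and 5 injected groups at each of stages 7 and 8. The injected groups received an antisense morpholino against E2f1 (MO), the MO with mRNA of an E2f1 mutant named deltaDBD, the MO with E2f1 mRNA, Cdkn1a mRNA, or the MO with Cdkn1a mRNA. E2f1 is a transcription factor of the cell cycle, and Cdkn1a is an inhibitor of cyclin-dependent kinases. No stage 6 embryos were injected, and injection of a control morpholino or control mRNA is not among the groups analysed. Whether both libraries of a group stem from different clutches is not given in the labels. A p-value here sets a difference against the spread of the sequenced libraries alone, and that spread may be technical.

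Mitotic kinesins build and position the spindle, move chromosomes and complete cell division. Transport kinesins carry organelles, vesicles and RNA, and several of them also build cilia. In a cleaving embryo the stored transcripts of both kinds lie side by side in the same large cells, and the length of their polyA tail helps set how far they are translated. Libraries of polyA RNA cannot tell apart a change in the amount of a transcript, in its polyA tail and in the number of cells that hold it. Nor do they separate stored from newly made transcripts. Log2 fold changes of tested genes reached 13.3 from stage 6 to 8 in wildtype embryos.

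Library totals ran from 14071614 to 19032710 counts, and 12883 genes passed the count filter, all 31 kinesins among them. The injected mRNAs were visible: cdkn1a stood at 239 to 298 CPM in the 4 groups given Cdkn1a mRNA and at 1.26 to 5.37 CPM in the other 9, and e2f1 stood at 2052 to 3013 CPM in the 4 groups given deltaDBD or E2f1 mRNA and at 387 to 531 CPM in the other 9. The level of e2f1 does not check the MO, which need not lower its target's RNA. All 11 listed maternal and germ plasm markers were at 1 CPM or more, with summed levels of 2443 to 3620 CPM per library. Summed neuron markers reached at most 2.89 CPM, muscle and blood markers 1.41 CPM, testis markers 2.31 CPM and multiciliated cell markers 19.5 CPM. Of the 7 listed multiciliated markers, dnah9 and spag6 reached 1 CPM in at least 1 group, and the other 5 stayed below that in every group, 1 of them at 0 in every library.

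The 2 libraries of the stage 8 MO group stood apart from each other. Their counts differed by a chi-square of 13.1 per degree of freedom, against 1.83 to 2.32 in the other 12 groups. Over the 31 kinesins the median absolute log2 ratio of replicate 1 to replicate 2 was 0.228, against 0.0415 to 0.0669 elsewhere, and 23 of 31 were higher in replicate 1. The number of called kinesins in every comparison with that group is therefore given with both libraries and without each. Leaving out either of these libraries also raised the count in comparisons that do not use them, except for deltaDBD mRNA on the MO at stage 7 and the MO with Cdkn1a mRNA against wildtype at stage 8, where it stayed at 0. These counts are given where they moved by more than 1.5 times. In the comparisons that do not use these libraries, more of all tested genes were called as well. The same held without replicate 1 in the comparisons that use the stage 8 MO. Shares of all tested genes given below come from the fit with all 26 libraries. They are therefore no background for a count with a library left out.

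Mitotic kinesins held the larger summed level on the scale of CPM per kb of exon, which allows genes of different length to be compared. Their levels, averaged over all 26 libraries, ran from 268 CPM per kb for kif22 to 15.1 CPM per kb for kif18b. kif22, a chromokinesin that pushes chromosome arms away from the spindle poles, stood first. kif23, the motor of the centralspindlin complex of the midzone, followed at 147 CPM per kb. kif20a, which brings the chromosomal passenger complex to the midzone, was at 94.8 CPM per kb. kif2c, a depolymerase that corrects attachments at kinetochores, stood at 61.7 CPM per kb. The chromokinesin kif4a and kif18a, which damps chromosome oscillation, had 48.9 and 48.1 CPM per kb. kif11, the motor that pushes spindle poles apart, was at 43.4 CPM per kb, close to 42.6 CPM per kb for kif14, which acts in cytokinesis. kif20b, another cytokinesis motor, had 34.5 CPM per kb, and kif15, which helps kif11 keep the spindle bipolar, had 30.3 CPM per kb.

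Transport kinesins spanned a wider range, from 76.3 CPM per kb for kif5b to 0.281 CPM per kb for kif5a. kif5b is the kinesin-1 heavy chain that most cell types use, and kif5a is its neuronal relative. kif21a, which restrains microtubule growth, had 26.3 CPM per kb. The kinesin-2 subunits kif3b and kif3a, which pair in the motor that builds cilia, had 22.9 and 10.6 CPM per kb. The endosome motor kif16b and the vesicle motors kif13a, kif13b, kif1c and kif1b lay between 11.4 and 3.09 CPM per kb, and kif17, a homodimeric kinesin-2, was at 1.14 CPM per kb. Among the other kinesins, the depolymerase kif2a and the centriolar kinesin kif24 were level at 36.1 CPM per kb each, and kif7, which acts in Hedgehog signalling at the ciliary tip, had 25.03 CPM per kb. kif26b and kif26a, relatives that lack motor ATPase activity, stood last at 0.620 and 0.611 CPM per kb.

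**Figure D1:**
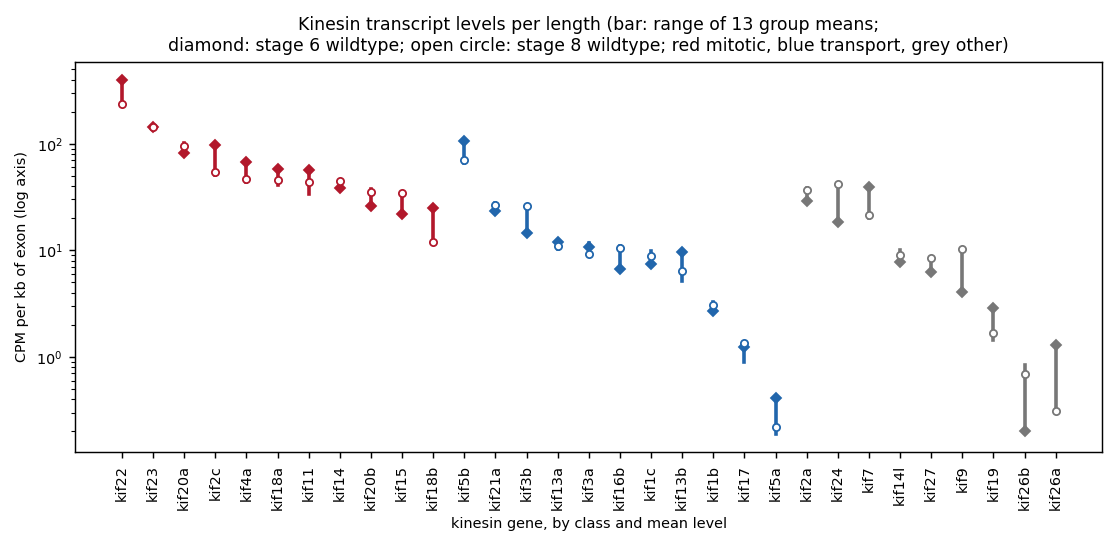
Transcript level of each of the 31 kinesins in CPM per kb of exon, on a log axis, ordered by mean level within each class. Bars span the 13 group means, diamonds mark stage 6 wildtype and open circles stage 8 wildtype: kif22 stands highest at a mean of 268 CPM per kb and kif5a lowest at 0.281 CPM per kb.

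A single gene held much of each class total. kif22 made up 39.5% and 39.2% of the summed mitotic CPM per kb in the 2 stage 6 libraries and 30.1% and 29.7% in the 2 stage 8 wildtype libraries. kif5b made up 54.9% and 54.0% of the transport sum at stage 6 and 41.3% and 40.0% at stage 8. The mitotic sum went from 1017 CPM per kb at stage 6 to 854 at stage 7 and 794 at stage 8 in wildtype embryos. The transport sum went from 195 to 183 and 174 CPM per kb over the same stages. On this scale both sums ended below their stage 6 level, and in both the most abundant gene accounted for a smaller share at stage 8. The TMM factors were 0.872 and 0.881 in the stage 6 libraries and 1.03 in both stage 8 wildtype libraries. A higher factor lowers the CPM, so small changes between these stages depend on this scaling, while shares within a library do not. Sums without the factors were not computed.

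Between stages 6 and 8 of wildtype development neither class moved as a block. In edgeR's quasi-likelihood fit, with p adjusted over all tested genes by the Benjamini-Hochberg method, 27 of 31 kinesins changed at an adjusted p below 0.05 (called, in what follows), 14 higher and 13 lower. In this comparison 69.0% of all tested genes were called, 36.4% higher and 32.6% lower. The kinesins' share was 87.1%. They are more abundant than most genes, with a median of 107 CPM against 31.8 CPM for all tested genes. Of the 2860 tested genes at or above the kinesins' median 88.1% were called, so the count is near the background for genes of this abundance. Such a share was not computed for the other comparisons.

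Among mitotic kinesins, 6 fell, 4 rose and 1 did not pass the test. kif18b, kif2c, kif22, kif4a, kif11 and kif18a fell. kif15, kif20b, kif14 and kif20a rose, of which the last 3 are known for roles in cytokinesis. kif4a, which also acts at the midzone, was among those that fell, so motors of late division did not share a direction. kif23, another cytokinesis motor, was at 534 and 524 CPM in the stage 6 libraries. In those of stage 8 it was at 545 and 515 CPM, so the stages overlapped. Its log2 fold change was 0.00 (SE 0.03, adjusted p = 0.937), and it was not called in any of the 23 comparisons made.

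kif22 lies on chromosome 9 from 2577959 to 2585851 on the v10 assembly of the count table. Its libraries read 1192 and 1161 CPM at stage 6, then 838 and 828 at stage 7, then 699 and 696 at stage 8. No library of one stage overlapped another. The fall from stage 6 to 8 was -0.75 on the log2 scale (SE 0.03, adjusted p = 3.49e-20), to 0.593 of the stage 6 level.

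kif18b, a kinesin that limits the length of astral microtubules, lies on chromosome 7 from 113558113 to 113584528. Its level was 160 and 164 CPM in the stage 6 libraries, 111 and 105 CPM in those of stage 7, and 78.5 and 75.9 CPM in those of stage 8. The 3 stages were again separate, and the log2 fold change from stage 6 to 8 of -1.07 (SE 0.06, adjusted p = 1.81e-17) was the largest fall of a mitotic kinesin. Its relative kif18a fell less, by 0.35 (SE 0.06, adjusted p = 1.88e-06).

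kif2c fell by 0.84 (SE 0.11, adjusted p = 5.47e-06), kif4a by 0.54 (SE 0.05, adjusted p = 1.58e-12) and kif11 by 0.37 (SE 0.12, adjusted p = 0.0153). Of the mitotic kinesins that rose, kif15 gained the most, with a log2 fold change of 0.63 (SE 0.05, adjusted p = 2.02e-13) from 107 and 103 CPM to 162 and 164 CPM. kif20b rose by 0.46 (SE 0.04, adjusted p = 2.55e-12), and kif14 and kif20a each rose by 0.23.

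Transport kinesins were split evenly, with 4 higher, 4 lower and 3 not called (kif1b, kif13a and kif17, at log2 fold changes of 0.21, -0.13 and 0.11). kif5b, on chromosome 6 from 22972593 to 23017568, had 597 and 563 CPM at stage 6, then 448 and 457 at stage 7 and 397 and 375 at stage 8. Each stage lay below the one before it with no overlap, and the log2 fold change from stage 6 to 8 was -0.59 (SE 0.04, adjusted p = 2.14e-14). kif13b, a vesicle motor, also fell, by 0.60 (SE 0.10, adjusted p = 2.3e-05).

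kif5a, on chromosome 2 from 140673616 to 140748417, had 2.03 and 1.87 CPM at stage 6, then 0.910 and 0.850 at stage 7 and 1.03 CPM in both libraries of stage 8. Its log2 fold change from stage 6 to 8 was -0.91 (SE 0.34, adjusted p = 0.0185), and it rests on 13 to 32 counts per library over the whole series, the fewest of any kinesin here. Of the 8 tested markers of neurons, multiciliated cells, muscle, blood and testis, 1 was called between these stages. It was the neuron marker elavl3, which went from 0.198 to 1.27 CPM, the opposite direction to kif5a. The 3 tested neuron markers had a median log2 fold change of -0.42, so elavl3 did not stand for its list. The part of elavl3 in the values of kif5a was not tested.

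The largest rise of a transport kinesin was that of kif3b, at a log2 fold change of 0.83 (SE 0.05, adjusted p = 1.07e-15) from 56.1 and 58.1 CPM to 102 and 101 CPM. kif16b rose by 0.66 (SE 0.07, adjusted p = 3.25e-10), and kif1c and kif21a rose by 0.25 and 0.19.

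The 2 motor subunits of heterotrimeric kinesin-2 went opposite ways on the TMM scale. kif3a had 40.6 and 36.1 CPM at stage 6 and 32.1 and 33.2 CPM at stage 8, a fall of 0.23 (SE 0.08, adjusted p = 0.0145). This fall is small enough to depend on the TMM factors, while the ratio of both genes does not depend on them. The ratio of kif3b to kif3a in CPM per kb was 1.35 ± 0.144 (SD, n = 2) at stage 6, 1.99 ± 0.0119 at stage 7 and 2.81 ± 0.0892 at stage 8. Injected groups at stage 8 had mean ratios of 2.22 to 2.73, all below the stage 8 wildtype mean. The MO with Cdkn1a mRNA overlapped wildtype, with 2.764 and 2.705 against 2.874 and 2.747 in single libraries. Injected groups at stage 7 had means of 1.77 to 2.39, on both sides of wildtype. These ratios were not tested. kifap3, the adaptor subunit of the same motor, had a log2 fold change of -0.07 (adjusted p = 0.183) between stages 6 and 8.

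All 9 other kinesins were called between stages 6 and 8, 6 higher and 3 lower, and they held the 3 largest rises and the largest fall of the family. kif26b, on chromosome 5 from 51804737 to 51975890, had 1.83 and 1.43 CPM at stage 6, then 3.96 and 4.92 at stage 7 and 6.07 and 4.99 at stage 8. Each stage lay above the one before it, by little between stages 7 and 8, and the log2 fold change from stage 6 to 8 was 1.77 (SE 0.25, adjusted p = 1.76e-07). In mice kif26b is known for its part in kidney formation.

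Its relative kif26a, on chromosome 8 from 98910481 to 98999518, moved the opposite way. It had 9.46 and 12.1 CPM at stage 6, then 8.19 and 5.95 at stage 7 and 3.09 and 2.12 at stage 8. The log2 fold change was -2.05 (SE 0.20, adjusted p = 7.56e-11), the largest fall of any kinesin, and most of it came after stage 7. In mice kif26a acts in the development of enteric neurons.

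kif9, a kinesin of motile cilia and flagella, lies on chromosome 6 from 12217516 to 12231331. It had 12.8 and 11.5 CPM at stage 6, then 22.8 and 22.3 at stage 7 and 28.9 and 32.3 at stage 8, a log2 fold change of 1.33 (SE 0.10, adjusted p = 1.16e-13). kif24, on chromosome 1 from 211277984 to 211307255, had 105 and 109 CPM, then 179 and 185 CPM, then 237 and 244 CPM. Its log2 fold change of 1.17 (SE 0.05, adjusted p = 3.57e-20) was the largest rise of a kinesin above 100 CPM. Both genes rose at each step without overlap between stages.

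kif2a, on chromosome 1 from 188890138 to 188928055, had 86.0 and 85.4 CPM at stage 6, then 105 and 101 at stage 7 and 109 and 111 at stage 8, a rise of 0.36 (SE 0.05, adjusted p = 2.02e-07). kif7 fell by 0.87 (SE 0.05, adjusted p = 3.8e-16) and kif19, which sets the length of motile cilia in mice, fell by 0.78 (SE 0.16, adjusted p = 5.13e-05). kif27, which motile cilia need in mice, rose by 0.44, and kif14l, with no listed role, by 0.21. The cilium-related kinesins kif9, kif24, kif7, kif27 and kif19 therefore did not share a direction, and dnah9, the one abundant multiciliated marker, had a log2 fold change of -0.18 (adjusted p = 0.336).

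**Figure D2:**
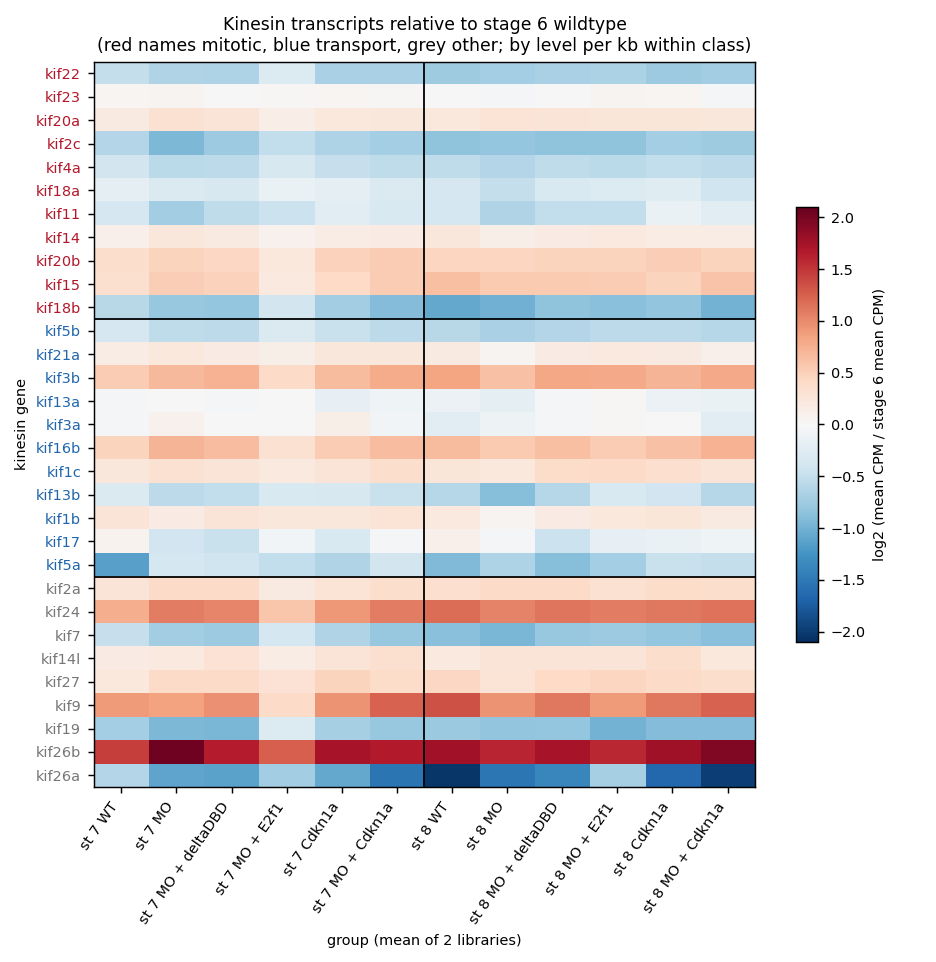
Log2 ratio of each group's mean CPM to the stage 6 wildtype mean for the 31 kinesins (rows, by class and level) in the 12 later groups (columns). Each class holds genes above and below 0, kif26b and kif26a have the strongest colours, and kif23 is near 0 throughout.

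Most of the change was in place by stage 7. In 26 of the 27 called kinesins the stage 7 mean lay between those of stages 6 and 8, kif5a being the exception, and in these 26 a median of 66.5% of the log2 difference was reached by stage 7. Between stages 6 and 7, 26 kinesins were called, 14 higher and 12 lower, against 56.3% of all tested genes (28.4% higher, 27.9% lower). The count was 17 without replicate 2 of stage 6. Between stages 7 and 8, 15 kinesins were called, 7 higher and 8 lower, against 36.7% of all tested genes (19.1% higher, 17.6% lower). The count was 10 when replicate 1 of stage 7 or replicate 2 of stage 8 was left out. kif26a showed the largest later step, a fall of 1.45 (SE 0.21, adjusted p = 2.19e-06), and kif18b, kif9, kif24 and kif7 followed with log2 fold changes of -0.48, 0.44, 0.40 and -0.39.

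**Figure D3:**
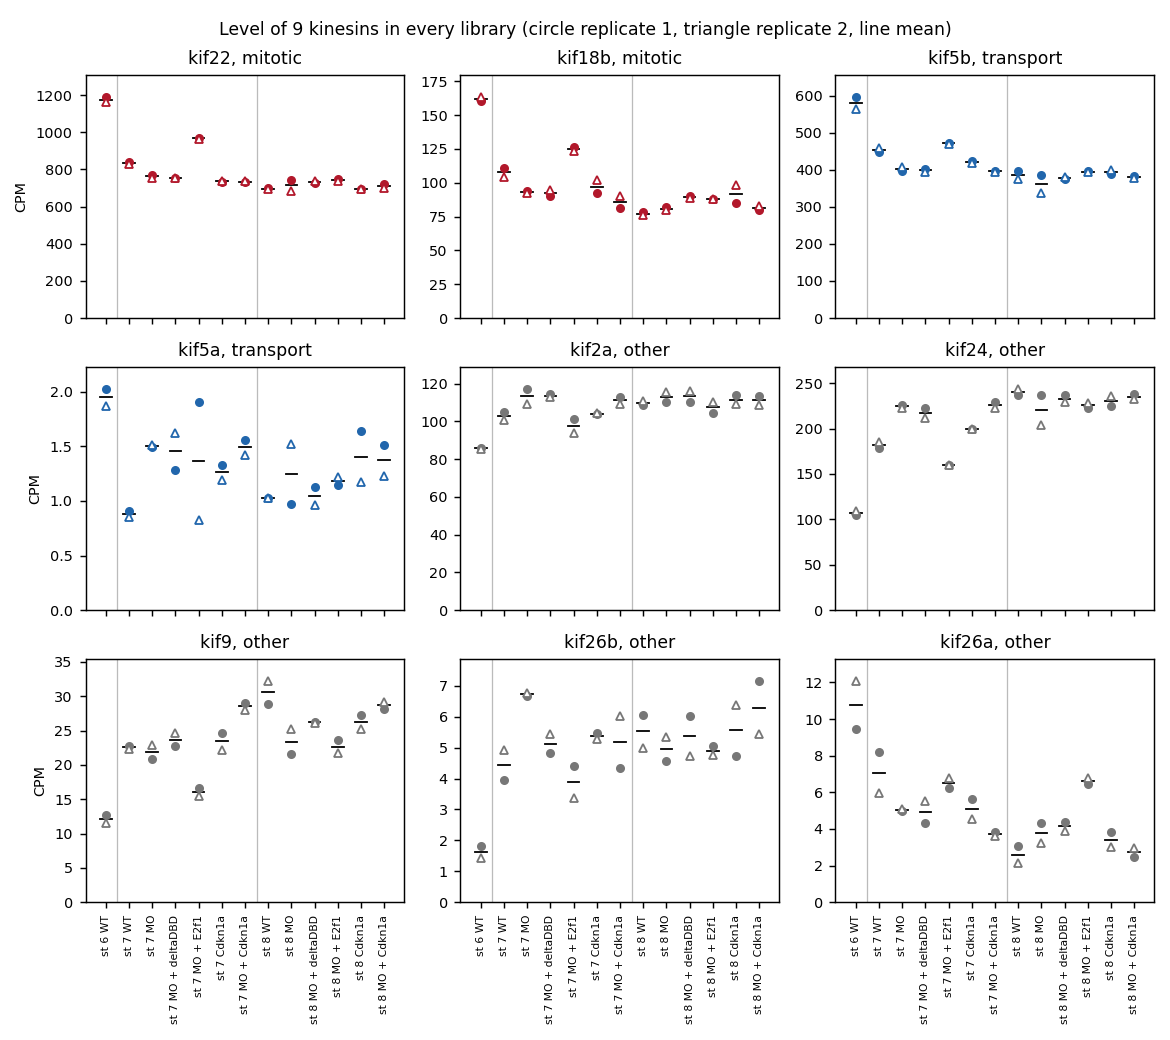
CPM of 9 kinesins in each of the 26 libraries, by group, with axes starting at 0; circles are replicate 1, triangles replicate 2 and lines the group mean. kif22 falls from 1192 and 1161 CPM at stage 6 to 699 and 696 CPM in stage 8 wildtype, while kif24 rises from 105 and 109 CPM to 237 and 244 CPM.

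In all 12 later groups the median mitotic kinesin was below its stage 6 level and below the median transport kinesin, whose median stayed between -0.09 and 0.13 and was above 0 in 7 of the 12. The difference of the medians, mitotic minus transport, of log2 mean CPM relative to stage 6 was -0.27 in stage 7 wildtype and -0.47 in stage 8 wildtype. In the 5 injected groups of stage 7 it ran from -0.40 (MO) to -0.15 (MO with E2f1 mRNA), and in those of stage 8 from -0.48 (MO) to -0.14 (Cdkn1a mRNA). The median of the 12712 tested genes with counts at stage 6 stayed between 0.01 and 0.05 in these groups. At stage 8 wildtype the mitotic median was -0.35, with members from -1.07 to 0.63, and the transport median was 0.11, with members from -0.92 to 0.83, so the ranges of both classes overlapped almost entirely. The differences are descriptions of 11 against 11 genes and depend on which genes are counted. With kif2a added to the mitotic class and kif21a taken out of the transport class, stage 8 wildtype gave -0.17. The Cdkn1a mRNA group at stage 8 then gave 0.01. All 12 differences use the same 2 stage 6 libraries, and the order of the groups was not tested. In single libraries the difference was -0.38 and -0.42 in stage 8 wildtype, and -0.41 and -0.28 in the stage 8 MO. At stage 7 it was -0.37 and -0.42 with the MO, and -0.15 and -0.24 with E2f1 mRNA added. With 1 library left out, stage 8 wildtype ran from -0.43 to -0.34, which does not include -0.47.

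**Figure D4:**
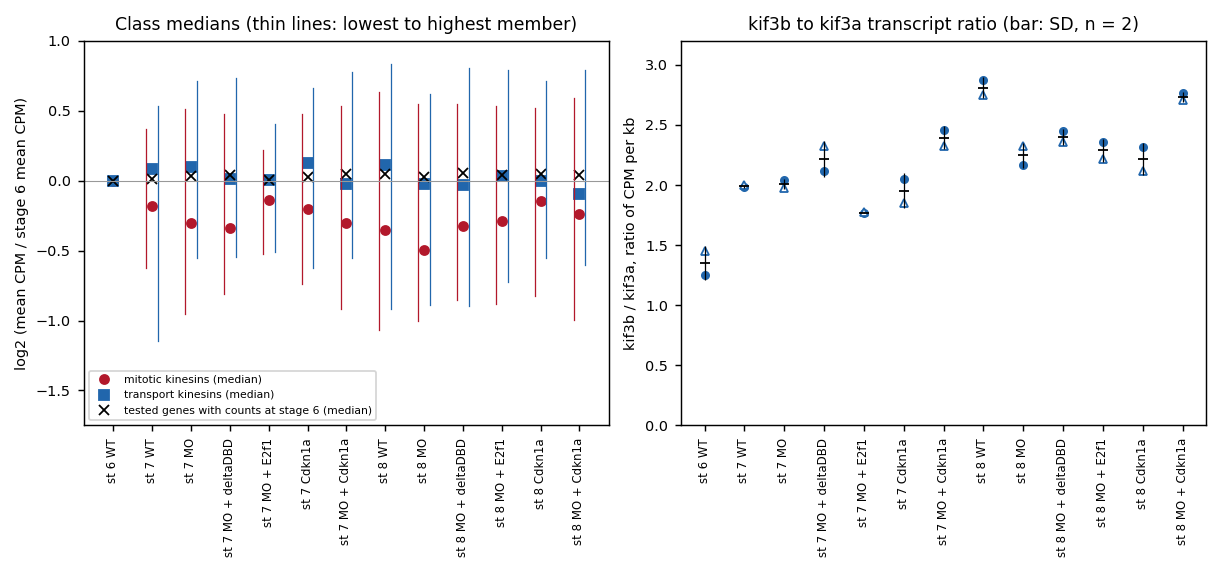
Left, median log2 ratio to stage 6 of the 11 mitotic and 11 transport kinesins and of tested genes in the 13 groups, with thin lines from the lowest to the highest member. Right, ratio of kif3b to kif3a in CPM per kb in each library (circle replicate 1, triangle replicate 2) with mean and SD, from 1.35 in stage 6 to 2.81 in stage 8 wildtype.

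At stage 7 the MO changed 15 of 31 kinesins relative to wildtype, 8 higher and 7 lower, against 25.2% of all tested genes (12.7% higher, 12.5% lower). Mitotic kinesins made up 8 of the 15, with kif11, kif2c, kif18b, kif4a and kif22 lower and kif15, kif20a and kif20b higher. Of the transport kinesins, kif16b and kif3b were higher and kif5b lower. Of the others, kif26b, kif24 and kif2a were higher and kif7 lower. The least abundant mitotic kinesin had a mean of 97.8 CPM over all libraries. The transport kinesins kif3a, kif1c, kif1b, kif17 and kif5a had means of 1.32 to 51.6 CPM. The part of abundance in these counts, in the whole family and by class, was not tested.

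The sizes were small. kif22 went from 838 and 828 CPM in wildtype to 769 and 755 CPM with the MO, a log2 fold change of -0.13 (SE 0.03, adjusted p = 0.00316). kif24 went from 179 and 185 CPM to 226 and 223 CPM (log2 fold change 0.30, SE 0.05, adjusted p = 1.42e-05), and kif7 from 204 and 190 CPM to 169 and 163 CPM (log2 fold change -0.25, SE 0.05, adjusted p = 0.00061). kif26b had the largest called change, from 3.96 and 4.92 CPM to 6.68 and 6.76 CPM (log2 fold change 0.60, SE 0.20, adjusted p = 0.0226). The libraries of both groups were separate in each of these 4 genes. The number of called kinesins was 7 without replicate 1 of stage 7 wildtype and 9 without replicate 1 of the MO, and with either of these left out kif26b, kif4a and kif2a were not called.

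Adding E2f1 mRNA to the MO changed 18 of 31 kinesins relative to the MO alone at stage 7, 8 higher and 10 lower, against 45.4% of all tested genes (22.4% higher, 23% lower). Higher were the mitotic kif2c, kif18b, kif22, kif4a and kif18a, the transport kif5b, and kif19 and kif7. Lower were the mitotic kif15, kif20b, kif20a and kif14, the transport kif16b and kif3b, and kif26b, kif24, kif9 and kif2a. This comparison and the one before it share the MO libraries.

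kif22 was at 971 and 965 CPM with E2f1 mRNA, above both the MO and the wildtype libraries of stage 7 and below those of stage 6; the log2 fold change over the MO was 0.34 (SE 0.03, adjusted p = 1.88e-10). kif24 was at 160 and 160 CPM, below the MO libraries and below the wildtype libraries of the same stage (log2 fold change over the MO -0.49, SE 0.05, adjusted p = 6.82e-10). kif9 was at 16.7 and 15.5 CPM, against 20.8 and 22.9 CPM with the MO (log2 fold change -0.44, SE 0.10, adjusted p = 0.000505). kif18b was at 126 and 123 CPM, against 93.6 and 92.5 CPM (log2 fold change 0.42, SE 0.06, adjusted p = 3.39e-07).

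Where the MO was combined with deltaDBD mRNA, no kinesin passed the test. Relative to the MO alone at stage 7, edgeR called 0 of 31 kinesins, against 0.0310% of all tested genes (0.0155% higher, 0.0155% lower), and DESeq2 called 0. At an unadjusted p below 0.05 there were 0 kinesins, beside 635 of the 12883 tested genes. Log2 fold changes lay between -0.39 (kif26b) and 0.21 (kif11). kif22 had 754 and 754 CPM, against 769 and 755 CPM with the MO. E2f1 mRNA compared directly with deltaDBD mRNA, both on the MO, called 15 kinesins, 7 higher and 8 lower, against 46.6% of all tested genes (22.6% higher, 23.9% lower). Among them were kif22 (log2 fold change 0.36), kif18b (0.44), kif7 (0.39), kif24 (-0.44) and kif9 (-0.56).

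Relative to stage 7 wildtype, the MO with E2f1 mRNA changed 5 kinesins, against 13% of all tested genes (6.82% higher, 6.20% lower). kif22 (log2 fold change 0.22, SE 0.03, adjusted p = 2.28e-05) and kif18b (0.21, SE 0.06, adjusted p = 0.0142) were higher, and kif9 (-0.49, SE 0.10, adjusted p = 0.00137), kif24 (-0.19, SE 0.05, adjusted p = 0.0106) and kif20b (-0.15, SE 0.04, adjusted p = 0.0103) were lower. The count fell to 2 without replicate 2 of the E2f1 mRNA group and to 3 without replicate 1 of it or replicate 2 of wildtype, and it was 10 without either stage 8 MO library.

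**Figure D5:**
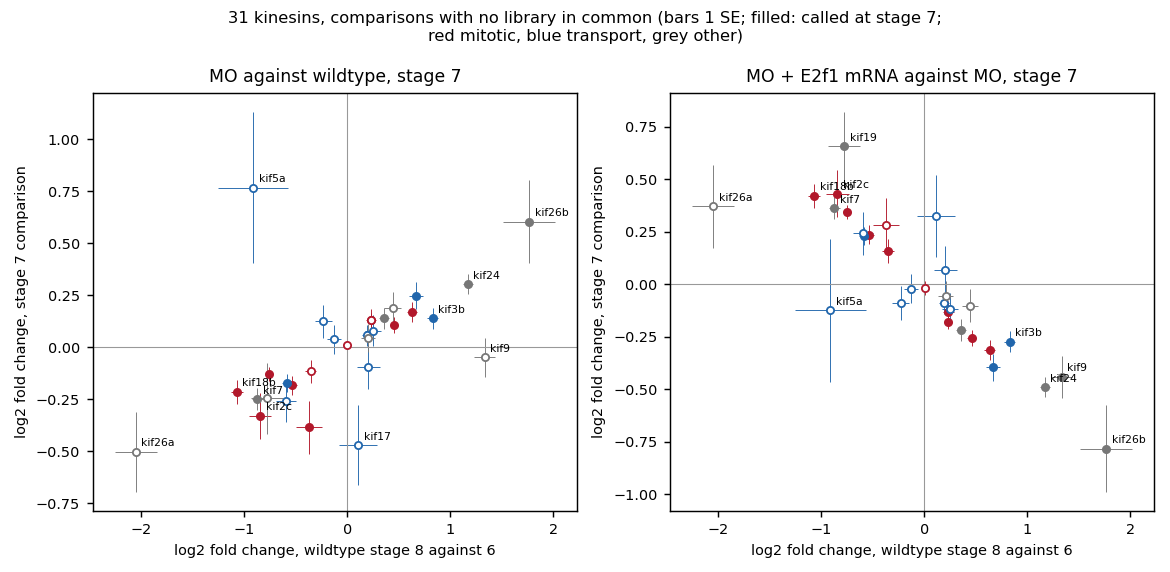
Log2 fold changes of the 31 kinesins from stage 6 to 8 in wildtype (horizontal) against those at stage 7 of the MO relative to wildtype (left) and of the MO with E2f1 mRNA relative to the MO (right), with bars of 1 SE; filled points passed the stage 7 test. Most points run from lower left to upper right on the left side and from upper left to lower right on the right side, with kif26b, kif24 and kif26a among the farthest.

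The wildtype step from stage 6 to 8 uses no library of stage 7, so it can be set beside the stage 7 comparisons. All 15 kinesins called with the MO at stage 7 were also called between stages 6 and 8. So were 3077 of the 3243 tested genes called with the MO. All 15 kinesins moved in the same direction in both, as did 97.4% of the 3077 tested genes. Of the 5849 tested genes called with E2f1 mRNA over the MO, 5604 were also called between stages 6 and 8. So were all 18 kinesins called with it, and all 18 moved the opposite way, against 99.7% of the 5604 tested genes. The 5 kinesins called between the MO with E2f1 mRNA and wildtype at stage 7 also moved against the wildtype step from stage 6 to 8, as did 98.4% of the 1644 tested genes called in both. In these stage 7 comparisons the called kinesins went the way of nearly all genes called in both. At stage 8 the shares were lower, but they are set beside another wildtype step and are not alike. Set beside wildtype stage 7 against 6, the MO at stage 8 had 2 kinesins called in both, both opposite in direction, and 34.9% of the 410 tested genes called in both had the same direction. For E2f1 mRNA on the MO at stage 8, 4 of 5 kinesins and 84.7% of 509 tested genes were opposite. These stage 8 shares were taken with both stage 8 MO libraries only, and the lists of called genes change when either is left out. Over the 31 kinesins, which share the libraries and are no replicates, the Pearson correlation of the log2 fold changes was 0.572 for the first pair and -0.862 for the second, and 0.736 and -0.838 over all tested genes. By class, it was 0.844 and -0.984 for mitotic kinesins, 0.891 and -0.906 for other kinesins, and -0.136 and -0.53 for transport kinesins. The value of -0.136 includes kif5a, at 13 to 32 counts per library. Within its class kif5a had the lowest wildtype value and the highest value with the MO. All 3 transport kinesins called in both comparisons of the first pair moved the same way. Of the 8883 tested genes called between stages 6 and 8, 7677 had the same sign with the MO, called or not. Of the 27 kinesins called between these stages, 24 did. The other 3 were not called with the MO: kif5a had log2 fold changes of -0.91 in wildtype and 0.77 with the MO (SE 0.36, adjusted p = 0.125), kif9 of 1.33 and -0.05, and kif3a of -0.23 and 0.13.

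Cdkn1a mRNA changed 1 kinesin relative to wildtype at stage 7, against 4.75% of all tested genes (1.93% higher, 2.82% lower). That was kif22, which went from 838 and 828 CPM to 733 and 740 CPM (log2 fold change -0.18, SE 0.03). The adjusted p without replicate 1 of the Cdkn1a mRNA group was 0.0556, and without either of the stage 8 MO libraries 8 kinesins were called. With all libraries, 10 of 31 kinesins had an unadjusted p below 0.05, beside 2579 of the 12883 tested genes.

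Added to the MO at stage 7, Cdkn1a mRNA changed 1 kinesin, kif9, against 1.40% of all tested genes (1.12% higher, 0.279% lower). It went from 20.8 and 22.9 CPM with the MO to 29.07 and 28.04 CPM with both (log2 fold change 0.39), and was not called when any 1 of these 4 libraries was left out. The MO with Cdkn1a mRNA differed from wildtype in 12 kinesins, 6 higher and 6 lower, against 31% of all tested genes (16.6% higher, 14.5% lower). kif26a was lower, at 3.82 and 3.64 CPM against 8.19 and 5.95 CPM in wildtype (log2 fold change -0.93, SE 0.20, adjusted p = 0.000519). kif24 was higher by 0.31 and kif9 by 0.34, and kif18b, kif7, kif5b and kif22 had log2 fold changes of -0.33, -0.31, -0.19 and -0.19. The interaction tests whether the effects of the MO and of Cdkn1a mRNA add on the log scale. At stage 7 it gave 8 kinesins at an unadjusted p below 0.05, beside 1603 of the 12883 tested genes. It called 0 kinesins by edgeR, against 1.05% of all tested genes (0.675% higher, 0.373% lower), and 0 by DESeq2. 1 kinesin was called without either stage 8 MO library.

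At stage 8 the groups lay closer together for kif22, the most abundant kinesin, which was between 685 and 749 CPM in all 12 stage 8 libraries, against 730 to 971 CPM in the 12 libraries of stage 7. With all libraries in the fit, the MO changed 2 kinesins relative to wildtype, both lower, against 4.32% of all tested genes (1.72% higher, 2.60% lower). kif9 went from 28.9 and 32.3 CPM to 21.6 and 25.2 CPM (log2 fold change -0.39), and kif3b from 102 and 101 CPM to 93.0 and 82.6 CPM (log2 fold change -0.21). The count was 12, all lower, without replicate 1 of the MO, and 3, 1 higher and 2 lower, without replicate 2. It was 1 without replicate 1 and 0 without replicate 2 of wildtype.

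E2f1 mRNA added to the MO at stage 8 changed 6 kinesins, all higher, against 6.06% of all tested genes (3.14% higher, 2.92% lower). kif13b went from 61.4 and 42.3 CPM to 74.7 and 78.1 CPM (log2 fold change 0.56, SE 0.10, adjusted p = 0.00175). kif26a went from 4.33 and 3.23 CPM to 6.47 and 6.78 CPM (log2 fold change 0.81, SE 0.21, adjusted p = 0.0131). kif18a, kif7, kif3b and kif13a were higher by 0.17 to 0.24. With only stage 8 in the fit none of these was called. For kif3b and kif13a the adjusted p was 0.0372 and 0.0399 by edgeR, and 0.0963 and 0.0523 by DESeq2. These genes also lost the call without either stage 6 library, although this comparison does not use them. In kif13b, as in most kinesins, replicate 2 of the MO was the lower library. The count was 16 without replicate 1 of the MO and 1 without replicate 2, and 1 and 2 without replicates 1 and 2 of the E2f1 mRNA group.

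Relative to stage 8 wildtype, the MO with E2f1 mRNA changed 2 kinesins, against 5.75% of all tested genes (2.1% higher, 3.66% lower). kif26a was higher, at 6.47 and 6.78 CPM against 3.09 and 2.12 CPM in wildtype (log2 fold change 1.35, SE 0.21, adjusted p = 3.38e-05), the largest called difference of a kinesin in the comparisons within a stage. Its level was close to the 8.19 and 5.95 CPM of stage 7 wildtype. kif9 was lower, at 23.6 and 21.7 CPM against 28.9 and 32.3 CPM (log2 fold change -0.43, SE 0.09, adjusted p = 0.00157). Without replicate 2 of wildtype or of the E2f1 mRNA group 1 kinesin was called, and without either MO library 9 were.

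deltaDBD mRNA on the MO at stage 8 gave 9 kinesins at an unadjusted p below 0.05, beside 1815 of the 12883 tested genes. It gave 0 called kinesins by edgeR, against 1.03% of all tested genes (0.536% higher, 0.497% lower), and 0 by DESeq2. The count was 13, all higher, without replicate 1 of the MO and 0 without replicate 2. E2f1 mRNA against deltaDBD mRNA at stage 8 gave 3 kinesins at an unadjusted p below 0.05, beside 1327 of the 12883 tested genes. It gave 0 called kinesins by edgeR, against 1.60% of all tested genes (0.295% higher, 1.30% lower), and 0 by DESeq2. kif26a had the largest log2 fold change, 0.67. Without either MO library 2 kinesins were called.

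Cdkn1a mRNA alone changed 2 kinesins relative to stage 8 wildtype, against 6.22% of all tested genes (2.81% higher, 3.41% lower). kif18b was higher, at 85.1 and 98.3 CPM against 78.5 and 75.9 CPM (log2 fold change 0.25), and kif15 was lower, at 144 and 148 CPM against 162 and 164 CPM (log2 fold change -0.16). The count was 0 without replicate 2 of either group, 1 without replicate 1 of either, and 4 without either MO library. Cdkn1a mRNA added to the MO gave 5 kinesins at an unadjusted p below 0.05, beside 1800 of the 12883 tested genes. It gave 0 called kinesins by edgeR, against 1.82% of all tested genes (1.13% higher, 0.683% lower), and 0 by DESeq2. The count was 11 without replicate 1 of the MO and 2 without replicate 2. The MO with Cdkn1a mRNA against wildtype gave 0 kinesins at an unadjusted p below 0.05, beside 852 of the 12883 tested genes. It gave 0 called kinesins by edgeR, against 0.473% of all tested genes (0.116% higher, 0.357% lower), and 0 by DESeq2. This comparison does not use the stage 8 MO libraries.

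The interaction at stage 8 called kif9 and kif3b, against 6.33% of all tested genes (3.85% higher, 2.48% lower). For kif9 the log2 effect of Cdkn1a mRNA was -0.22 in embryos without the MO and 0.30 in those with it, a difference of 0.52 (SE 0.13, adjusted p = 0.0107). The count was 11 without replicate 1 of the MO, 5 without replicate 2, and 1 without replicate 2 of any of the other 3 groups. The effect of the MO itself differed between stages 7 and 8 in 9 kinesins, against 16.1% of all tested genes (7.4% higher, 8.75% lower), and that of Cdkn1a mRNA in 4, against 6.09% of all tested genes (3.66% higher, 2.44% lower). The first count was 14 and 11 without replicates 1 and 2 of the stage 8 MO and 5 without replicate 1 of stage 7 wildtype or replicate 2 of stage 8 wildtype. The second was 11 without either stage 8 MO library, and 1 or 2 without any 1 of the 8 libraries it compares.

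Genes that work with these motors were called in both directions too, and their counts are to be read beside the 69.0% of all tested genes called between stages 6 and 8. Of 8 tested genes among kinesins named otherwise and kinesin cofactors, 6 were called between stages 6 and 8, 3 higher and 3 lower, at a list median of -0.08 against 0.06 for all tested genes. kifc3 and kifc1, minus-end directed kinesins, were higher by 1.21 and 0.80. cenpe, the kinetochore kinesin, had a log2 fold change of -0.69. The light chain klc1 went from 198 to 186 CPM, a log2 fold change of -0.09 (adjusted p = 0.048), while its heavy chain kif5b fell by 0.59.

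Of 11 spindle and midzone partners, 3 were higher and 5 lower, at a median of -0.07. tpx2 and hmmr, which build the spindle, had log2 fold changes of -0.74 and -0.65, and ckap5, a microtubule polymerase, one of -0.65. racgap1, the partner of kif23 in centralspindlin, had a log2 fold change of -0.02 (adjusted p = 0.589), and prc1, the partner of kif4a at the midzone, of 0.09 (adjusted p = 0.0808). cit, the kinase that works with kif14, was higher by 0.46. The largest change of this list was a rise, that of ect2, at a log2 fold change of 1.54 from 38.1 to 111 CPM. numa1 was higher by 0.62.

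Of 20 tested genes of dynein and dynactin, the motor that runs the opposite way, 16 were called, 8 higher and 8 lower, at a median of -0.02. dctn1, the dynactin subunit that binds microtubules, had the largest change, a log2 fold change of 2.02 (SE 0.08, adjusted p = 2.4e-21) from 11.2 to 45.7 CPM. pafah1b1 and dctn4 were higher by 0.73 and 0.56, while the heavy chain dync1h1 had a log2 fold change of -0.46. Of 12 tested tubulin genes, 4 were higher and 5 lower, at a median of -0.27. tubb and tuba1c had log2 fold changes of -1.04 and -0.58, and tubb4a one of 0.79. All 11 maternal and germ plasm markers were called, 4 higher and 7 lower, at a median of -0.60. At stage 7 the MO changed 2 of 8 kinesin cofactors and outside kinesins, 3 of 11 spindle partners (all lower), 6 of 20 dynein and dynactin genes and 3 of 12 tubulins, beside 25.2% of all tested genes. E2f1 mRNA added to the MO changed 3, 6, 9 and 7 of these, beside 45.4% of all tested genes. Of the 11 maternal and germ plasm markers the MO changed 9 at stage 7, 1 higher and 8 lower. E2f1 mRNA added to the MO changed 10 of them, 7 higher and 3 lower. These lists, like the kinesins, are described here and were not tested as lists.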

How the data were processed

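Gene counts of polyA RNA were deposited for 26 libraries. Per the submitters' processing notes the authors trimmed reads with fastp and aligned them with STAR 2.7.0e; per the file headers the deposited counts are whole fragments per gene from featureCounts 2.0.1 on a v10 gene annotation, reverse-stranded, with both mates mapped and chimeric pairs and multi-mapping reads left out. The sources used here give no trimming settings, and coverage tracks were not used here. Reads shared by near-identical genes were therefore dropped, which could lower both members of a close pair.

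Genes were filtered with filterByExpr at a minimum count of 10, scaled with TMM and fitted in 1 edgeR 4.0.16 quasi-likelihood model of the 13 groups (R 4.3.3, limma 3.58.1), with 13 residual degrees of freedom and a common biological coefficient of variation of 3.93%. Adjusted p-values are Benjamini-Hochberg over the 12883 tested genes, with a threshold of 0.05, two-sided. CPM per kb divides by the exon length in the count table. All 31 symbols matched the RefSeq gene table of the same assembly. DESeq2 1.42.0, other size factors, no filter, a replicate term, fits of the compared stages alone and the omission of each library were alternatives. The procedure was also run on simulated counts in which few genes changed. Such counts do not check the scaling where many genes change, as between stages 6 and 8, where 69.0% of tested genes were called. Replicate numbers were checked for pairing and showed none common to all groups. Figures were drawn with matplotlib 3.10.9.

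Full statistics were given for called kinesins, mainly the 4 of smallest p per class, and library values for the 3 largest rises and falls between stages 6 and 8 and the most abundant kinesin of each class; of partner lists, up to 3 genes of smallest p. kif23, kif3a, kif3b, kif15 and kif13b with their library values, and kifap3, klc1, racgap1, prc1, cit, ect2, numa1 and dync1h1, were named after their values were seen. The kinesins and all gene lists were chosen with earlier results of these data known.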

Additional observations from a re-analysis of the deposited data

Results flagged for a closer look

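These 15 results are given because a test of the difference itself (edgeR, adjusted over all tested genes) separated the effects of 1 treatment in 2 settings. The explanations were not tested. All but those of Cdkn1a mRNA between stages use the stage 8 MO libraries, which differed from each other more than any other pair, and each result was recomputed under 31 alternatives.

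The effect of Cdkn1a mRNA at stage 8 differed with the MO for kif9, by 0.52 (SE 0.13, adjusted p = 0.0107), with log2 effects of -0.22 without the MO and 0.30 with it. For kif3b the difference was 0.29 (adjusted p = 0.0103), with effects of -0.12 and 0.17. These were not called under 4 and 3 of the alternatives.

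The effect of the MO at stage 8 minus that at stage 7 was 0.16 for kif22 (adjusted p = 0.0121), 0.28 for kif18b (adjusted p = 0.0208) and 1.04 for kif26a (adjusted p = 0.017). In these 3 genes the effect was negative at stage 7 (-0.13, -0.21 and -0.50) and positive at stage 8 (0.04, 0.06 and 0.54). The difference was -0.24 for kif14 (adjusted p = 0.0219), -0.26 for kif15 (adjusted p = 0.00756), -0.43 for kif24 (adjusted p = 2.85e-05), -0.35 for kif27 (adjusted p = 0.0287), -0.35 for kif3b (adjusted p = 0.000765) and -0.36 for kif16b (adjusted p = 0.0059). In these 6 the effect was positive at stage 7 (0.13, 0.17, 0.30, 0.19, 0.14 and 0.25) and negative at stage 8 (-0.11, -0.09, -0.13, -0.16, -0.21 and -0.11). Of all 9 genes only kif3b was called for the MO against wildtype at stage 8, and kif14, kif27 and kif26a were not called at stage 7. For kif3b the stage 7 effect had an adjusted p of 0.0406 by edgeR and 0.0836 by DESeq2. Its stage 8 effect had 0.0104 by edgeR and 0.0884 by edgeR with only stage 8 in the fit. Without replicate 2 of the stage 8 MO that effect was -0.12. Opposite effects at both stages are therefore not firm for kif3b, and were not shown for the other genes. The test and the alternatives that follow are of the difference between the stages. kif22, kif15, kif24, kif3b and kif16b were called under all 31 alternatives, while kif14, kif18b, kif27 and kif26a were not called under 5, 3, 6 and 3 of them. Without replicate 2 of the stage 8 MO the difference was -0.10 for kif14, -0.22 for kif27 and -0.21 for kif16b, of which kif16b was still called. kif14 stood at 281 CPM in replicate 1 of the stage 8 MO and at 229 CPM in replicate 2, against 277 and 274 CPM in wildtype, so that only replicate 2 was below wildtype.

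The effect of Cdkn1a mRNA at stage 8 minus that at stage 7 was 0.17 for kif22 (adjusted p = 0.0187), 0.40 for kif18b (adjusted p = 0.00277), -0.23 for kif15 (adjusted p = 0.0353) and -0.24 for kif3b (adjusted p = 0.0347). The effects at stage 7 were -0.18, -0.15, 0.07 and 0.13, and those at stage 8 were -0.00, 0.25, -0.16 and -0.12. kif18b was not called under 1 alternative and the other 3 under 7 to 10.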

How the results depend on the processing

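Of 3534 recomputed values of named kinesins, 3357 kept their direction and their side of the threshold, 177 kept the direction but were no longer called, and 0 reversed. Of the 31 alternatives of each result, 26 leave out 1 library, mostly one that the comparison does not use. Such fits could hardly change the direction or the size, so these totals do not measure how firm a result is. Where a count of called kinesins moved, the cause was not tested.

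With only the stages compared in the fit, the count was 10 for the MO with E2f1 mRNA against wildtype at stage 7, 8 for Cdkn1a mRNA against wildtype, 2 for the MO with Cdkn1a mRNA against the MO and 1 for the interaction. At stage 8 it was 0 for the MO against wildtype and 2 for E2f1 mRNA on the MO. It was 1 there for Cdkn1a mRNA against wildtype and 0 for the interaction. In these fits 3004, 1892, 792 and 675 of all tested genes were called at stage 7, in the same order. At stage 8 there were 205, 402, 482 and 384. Without a filter on low counts it was 3 for Cdkn1a mRNA on the MO and 1 for the interaction at stage 7; at stage 8 it was 4 for the MO and for the MO with E2f1 mRNA, each against wildtype, and 2 for deltaDBD mRNA on the MO, for E2f1 against deltaDBD mRNA and for Cdkn1a mRNA on the MO. Without the filter, 371 and 209 of all genes were called at stage 7, and 946, 835, 556, 293 and 503 at stage 8. These are in the order of the kinesin counts. DESeq2 gave 1 kinesin for Cdkn1a mRNA against wildtype at stage 8, beside 588 of all tested genes. It gave 2 for the effect of Cdkn1a mRNA between stages, beside 578.

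Leaving out 1 library at a time gave counts of 17 to 27 for stage 7 against 6, 10 to 18 for stage 8 against 7 and 24 to 28 for stage 8 against 6. At stage 7 they were 7 to 20 for the MO, 2 to 10 for the MO with E2f1 mRNA, 0 to 8 for Cdkn1a mRNA and 10 to 15 for the MO with Cdkn1a mRNA, each against wildtype. They were 15 to 21 for E2f1 mRNA and 0 to 2 for Cdkn1a mRNA on the MO, 13 to 19 for E2f1 against deltaDBD mRNA and 0 to 1 for the interaction. At stage 8 they were 0 to 12 for the MO, 1 to 9 for the MO with E2f1 mRNA and 0 to 4 for Cdkn1a mRNA against wildtype. On the MO they were 1 to 16 for E2f1 mRNA, 0 to 13 for deltaDBD mRNA and 0 to 11 for Cdkn1a mRNA, with 0 to 2 for E2f1 against deltaDBD mRNA and 1 to 11 for the interaction. The effects between stages gave 5 to 14 for the MO and 1 to 11 for Cdkn1a mRNA.

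The mitotic minus transport median, with kif2a counted as mitotic and kif21a left out, was -0.10 in wildtype, -0.18 with the MO, -0.14 with deltaDBD mRNA, -0.051 with E2f1 mRNA, -0.059 with Cdkn1a mRNA and -0.10 in the group given both the MO and Cdkn1a mRNA, all at stage 7. At stage 8 it was -0.17, -0.19, -0.13, -0.15, 0.0094 and -0.024 in the same order, the value with Cdkn1a mRNA alone being a reversal. With a minimum of 5 CPM it was -0.43 in the stage 7 MO and -0.51, -0.39, -0.41, -0.24 and -0.25 in stage 8 wildtype, deltaDBD, E2f1, Cdkn1a and the MO with Cdkn1a mRNA. Without 1 library it ran at stage 7 from -0.33 to -0.15, -0.51 to -0.31, -0.46 to -0.28, -0.26 to -0.15, -0.44 to -0.22 and -0.42 to -0.20, and at stage 8 from -0.43 to -0.34, -0.50 to -0.28, -0.41 to -0.29, -0.43 to -0.32, -0.26 to -0.066 and -0.29 to -0.02, in the same order of groups.

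The replicate numbers showed no pairing common to all groups: deviations of same-numbered libraries had a median correlation of 0.0628. The correlations ran from -0.287 to 0.232, and 29 of 78 pairs of groups were over 0.1. No reference value was computed, so the check cannot exclude pairing among some of the groups. With the replicate number as a block the count was 27 for stage 8 against 6 and 15 for the MO at stage 7, and no count of called kinesins moved.

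kif5a, kif26b and kif26a, at 13, 23 and 36 counts in their lowest libraries, are the least precise of the values given.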
